A study of Mus musculus with 6 samples.

Results

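Rab proteins are small GTPases that mark the membranes of vesicles and organelles and recruit the tethers, motors and fusion proteins that move cargo between them. Each cycles between a GTP-bound form, loaded by an exchange factor, and a GDP-bound form, made when a GTPase activator speeds hydrolysis. Lipid groups attached to cysteines at the end of the protein hold it on the membrane, and GDP dissociation inhibitors carry it back through the cytosol. In hepatocytes these proteins serve receptor uptake from blood, recycling and transcytosis to the bile canaliculus, delivery to lysosomes, and secretion of plasma proteins and lipoproteins.

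The genes described here are the rows of a mouse liver expression table whose symbol is Rab followed by a number and at most a letter from a to d, which gave 59 of 22899 rows. Values were present for all 59 and for 17738 rows in all. The livers came from specific pathogen-free mice of the outbred ICR stock. In the extract group they had been gavaged for 1 week with Chebulae Fructus, the fruit of Terminalia chebula, as the ethyl acetate fraction of its hydrosoluble extract at 1 g/kg per day. In the water group they had received 10 ml/kg of water by gavage for 1 week, and no part of the liver is specified. Each group held 3 libraries of poly(A)-selected RNA, numbered as water 1 to 3 and extract 1 to 3 below. Sex, age, cage and day are not in the labels. Nor do they state that libraries came from separate animals, so a p-value reflects only how far these libraries spread, which may be technical.

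Values are FPKM, fragments scaled for transcript length and library size, a level that can be compared between genes. This unit was inferred, since the table names none, and the number of reads behind a value is unknown. The FPKM of a library summed to between 517984 and 583245. Albumin alone had 62159.73, 71235.65 and 64130.64 FPKM in water and 48517.3, 45370.99 and 58258.81 in extract livers, without overlap (limma adjusted p = 0.618). Of 10 hepatocyte markers, albumin among them, 5 had positive and 5 negative log2 fold changes, and none was at 0 in all libraries. The summed level of 14 Kupffer cell markers was 158 to 187 FPKM in water and 237 to 366 in extract livers, with 13 of 14 positive log2 fold changes and none at 0 in all libraries. All 12 sinusoidal endothelial markers had negative log2 fold changes, with sums of 169 to 197 FPKM in water and 143 to 178 in extract livers. These sign counts include Fcna of the Kupffer list at 0.00 and Oit3 of the endothelial list at -0.01. An unadjusted limma p below 0.05 was reached by 9 of the 14 Kupffer and 1 of the 12 endothelial markers, against 10.3% of all genes tested. Of 5 tested red blood cell markers 4 were negative and 1 positive. The 6 listed summed to 791 to 2770 FPKM in water and 529 to 810 in extract livers. The part of these differences in any result below was not tested. In whole tissue, fewer cells of a type and less RNA per cell cannot be told apart. Over all genes the share whose groups did not overlap was 15.9%, and it rose whichever of the 6 libraries was left out. Part of such a rise comes with any smaller group, where fewer values have to lie apart. The share moved most without water 1, to 33.9%, so results that turn on a library are also given without it.

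All 59 genes had a complete coding sequence in GENCODE M21 (GRCm38), and in every case at least 1 of the last 4 codons before the stop was a cysteine codon, the attachment point of the lipid. In 20 genes the last codon and the next but 1 before it were cysteine codons, in 15 genes the last 2 codons were, and in 15 genes only the fourth-last codon was. The last 30 coding bases are shown for the members with the smallest p-values, for Rab5a and Rab5b, for the highest members Rab7 and Rab1b, and for Rab11a and Rab8a. They are written 5′ to 3′ on the coding strand without the stop codon, with cysteine codons in capitals.
Rab30: atcagctatttgactTGTTGTaatttcaac
Rab32: cccacaacaaagcccaggtcccagTGCTGC
Rab3a: caggcgccacctcatcaggatTGTgccTGC
Rab9: cgaaagcccaagccaaactcatctTGCTGT
Rab5a: cagccagccagaagccagTGTTGTagtaac
Rab5b: cagcagaacaagagccagTGTTGTagcaac
Rab7: gccaaggcctccgcagaaagcTGCagtTGT
Rab1b: cctgtgaagcctgctagcggtggcTGCTGC
Rab11a: aagccaaaggtgcagTGCTGTcagaacatc
Rab8a: aggaccagcttcttccggTGCagtctcctg
Rab5a and Rab5b shared 2 cysteine codons followed by 2 others. Rab30 and Rab11a carried theirs further in, and Rab8a had only 1 in its last 10 codons.

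Rab levels in liver spanned several orders of magnitude, and the family as a whole was at nearly the same level in both groups. The summed FPKM of the 59 genes was 841.4, 832.6 and 886.0 in water and 846.9, 847.7 and 893.9 in extract livers, and the groups overlapped. That is 853 ± 28.6 and 863 ± 26.9 (mean ± SD, n = 3 per group throughout), a ratio of 1.01. The family made up 0.144% to 0.171% of a library's FPKM. 4 members had a mean of at least 50 FPKM, 19 lay between 10 and 50, 16 between 1 and 10, and 20 below 1. The 10 highest members made up 63.9% of the family's summed level.

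**Figure D1:**
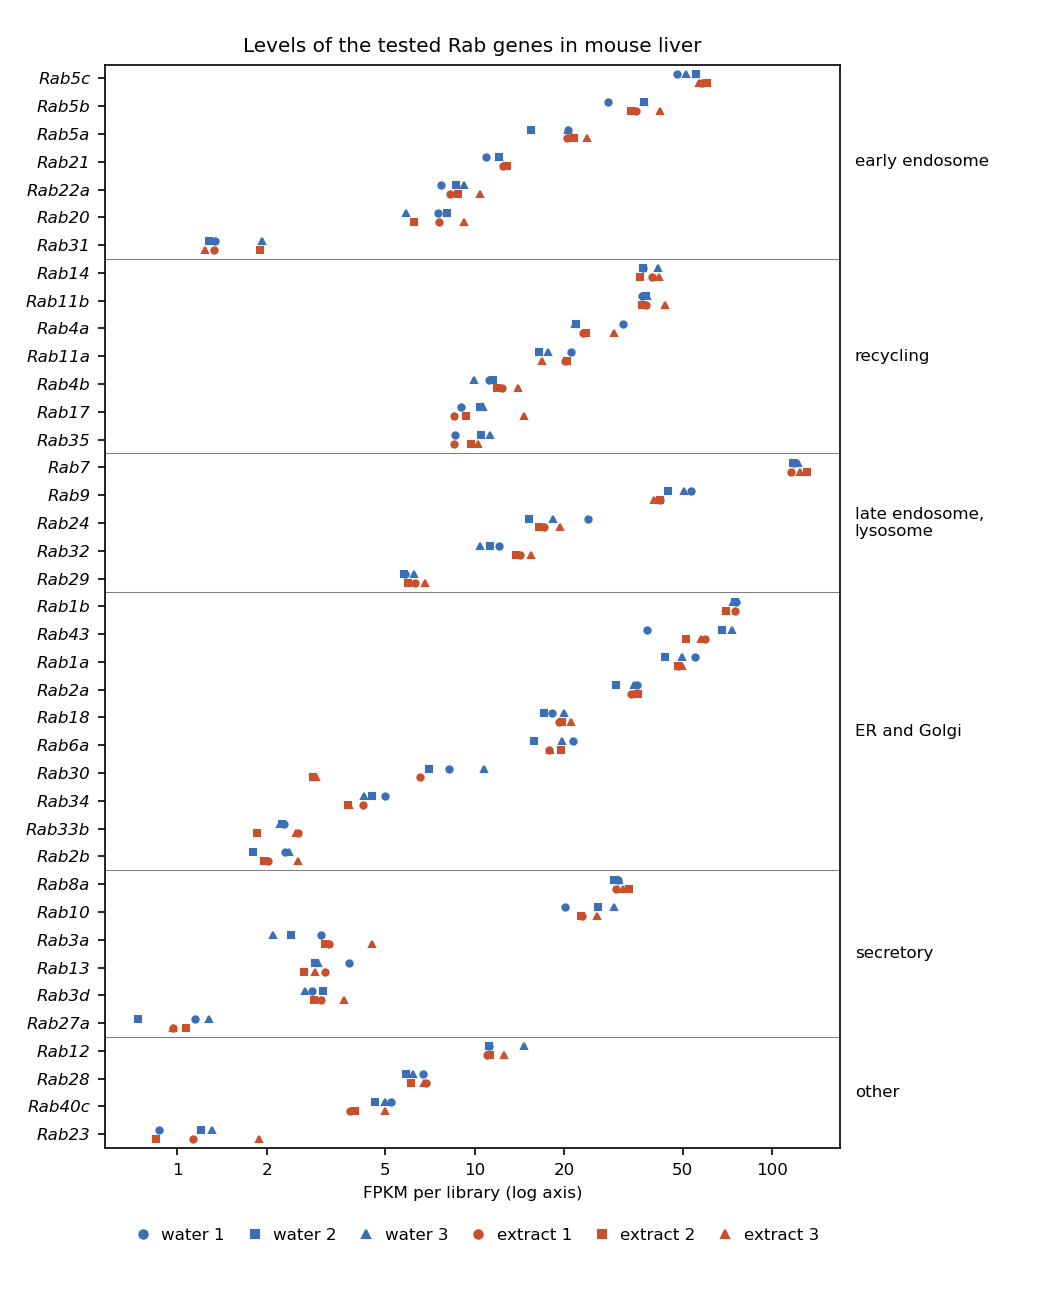
FPKM of the 39 tested Rab genes in each library on a log axis, grouped by role, with water libraries in blue and extract libraries in red. Symbols overlap between groups for most genes; Rab7 is highest in every library and the Rab30 points of extract 2 and 3 lie far to the left of the others.

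Rab7, which drives maturation of late endosomes and fusion with lysosomes, was the highest member in all 6 libraries, with 118.51, 117.48 and 122.24 FPKM in water and 116.14, 130.63 and 124.36 in extract livers. Rab1b, which acts between the endoplasmic reticulum and the Golgi, was second in all 6, with 75.84, 74.76 and 73.74 FPKM against 75.06, 69.94 and 69.85. The groups overlapped for both genes. Rab43, Rab5c and Rab1a followed, between ranks 3 and 6 in every library, and their order changed from library to library. Rab9 stood among them in water, at ranks 4, 5 and 5, and at 6, 6 and 9 in extract livers. Of the 50-base stretches of Rab43 transcripts, 74.5% occur in other annotated genes. The share was 11.2% for Rab7, 9.8% for Rab5b and 9.5% for Rab11b, so these levels also depend on how reads were divided. Close relatives differed in level in every library. Rab5a was at 0.28 to 0.43 of the level of Rab5c across libraries, Rab11a at 0.384 to 0.58 of Rab11b, and Rab1a at 0.583 to 0.724 of Rab1b. Rab8b was at 0.0218 to 0.0274 of Rab8a.

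The comparison asked which Rab transcripts differed after a week of extract. limma was run on log2(FPKM + 1) over the 10282 genes that reached 1 FPKM in 3 or more libraries, which included 39 of the 59 Rab genes. 37 of the 39 reached 1 FPKM in all 6 libraries; the others were Rab23, in 4, and Rab27a, in 3. By limma 0 Rab genes passed a Benjamini-Hochberg adjusted p of 0.05, where 0.0486% of all genes tested passed, and the smallest adjusted p was 0.264. At an unadjusted p below 0.05 there were 3 Rab genes, or 7.69%, against 10.3% of all genes tested. Rab32 and Rab3a were higher in extract livers, where 6.50% of all genes were, and Rab30 was lower, where 3.82% were. The groups did not overlap for 8 of the 39 tested Rab genes, or 20.5%, against 15.9% of all genes tested. Rab8b and Rab7b, below 1 FPKM and not tested, are not in this count and did not overlap either. 5 of the 8 were higher in extract livers (Rab5c, Rab21, Rab4b, Rab32 and Rab3a), beside 10.0% of all genes, and 3 lower (Rab30, Rab9 and Rab34), beside 5.88%. After scaling every library to a common sum, a count added after the data were seen, 5 did not overlap, Rab32, Rab3a, Rab30, Rab9 and Rab34, against 13.8% of all genes.

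The median log2 fold change over the 39 genes was 0.05, beside 0.03 over all genes tested. Without extract 3 it was -0.02, beside 0.02. With all libraries 24 of the 39 were positive and 15 negative, beside 5908 positive and 4374 negative over all genes tested. The Rab division was 20 and 19 after median centring, which sets every library to the same median gene. It was 19 and 20 when the 20 highest genes were left out of the scaling. On this log2(FPKM + 1) scale only Rab30 had a log2 fold change beyond 0.5 in size, as 6.36% of all genes tested did. With 0.1 or 0.01 added to FPKM instead, Rab3a also lay beyond 0.5, at 0.51 and 0.52. The share of all genes beyond 0.5 was not computed for those settings. For 31 of the 39, or 79.5%, limma's 95% interval of the log2 fold change lay wholly between -0.5 and 0.5, which was so for 57.7% of all genes tested. The intervals are not adjusted for the number of genes. The median SD within groups of log2(FPKM + 1) was 0.13 over the Rab genes and 0.17 over all genes, and the median level on that scale was 3.72 and 3.03.

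**Figure D2:**
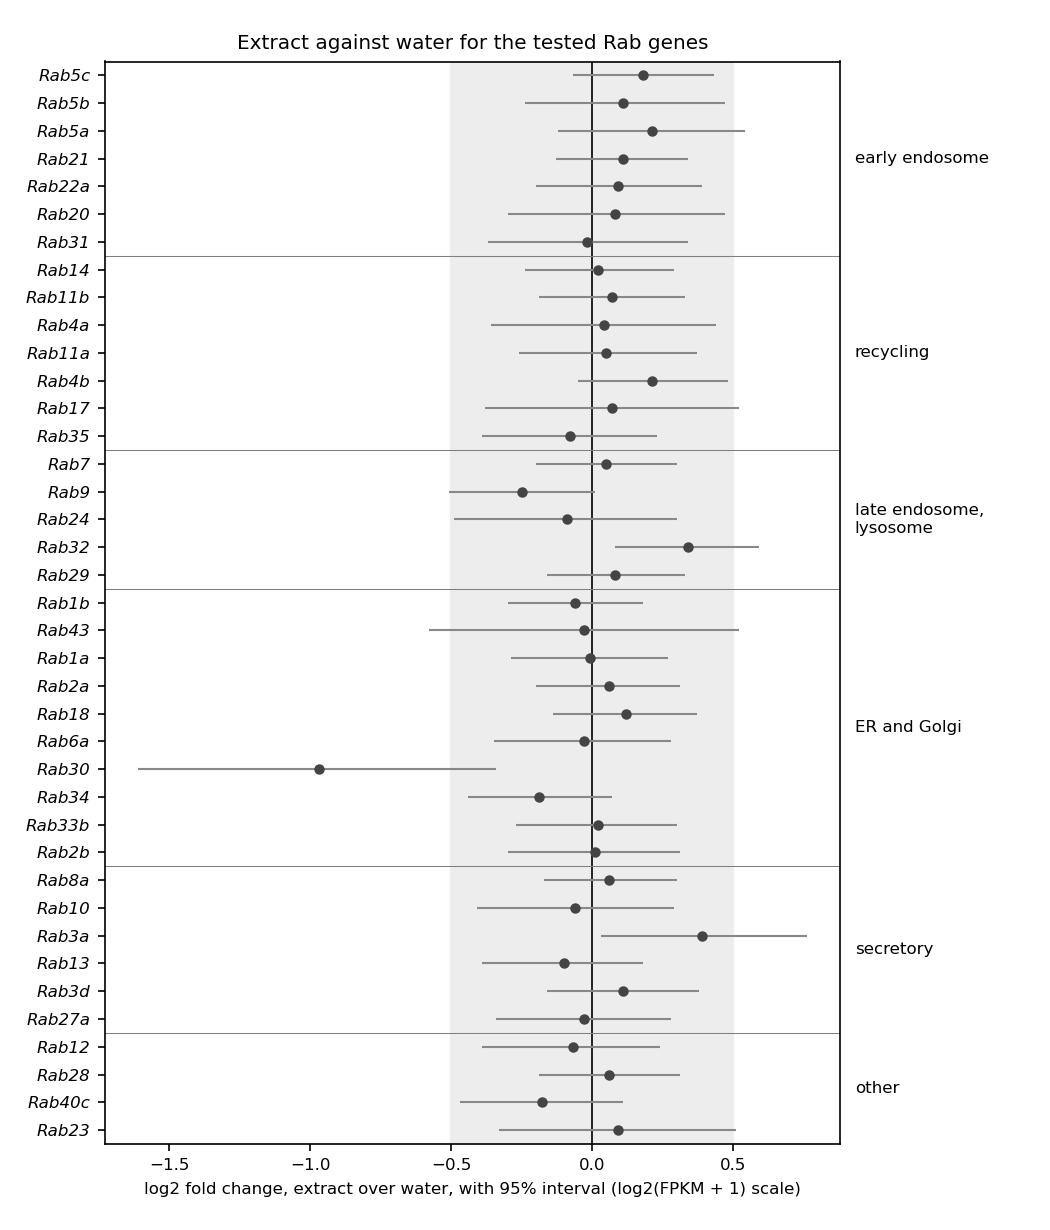
log2 fold change of extract over water for the 39 tested Rab genes, with limma's unadjusted 95% intervals as bars and the range from -0.5 to 0.5 shaded. 31 of the 39 intervals stay within the shaded range, and the Rab30 point at -0.97 lies outside it.

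Early endosome members take up receptors and ligands from the cell surface and fuse the first endocytic compartments. All 7 were tested and 6 had positive log2 fold changes, with a median of 0.11. Under the 4 other scalings tried 6 were also positive, with medians from 0.06 to 0.08. By limma 0 passed, and 0 had an unadjusted p below 0.05. Their summed level was 124.1, 138.1 and 138.3 FPKM in water and 143.2, 145.4 and 156.0 in extract livers, with every extract library above every water library. The gap closed after scaling to a common sum of 1000000, where the sums were 213, 263 and 267 in water and 254, 258 and 291 in extract livers. They made up 15.6% of the family's level in water and 17.2% in extract livers.

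The Rab5 genes carried most of that level. Rab5c had 48.04, 55.34 and 51.54 FPKM in water and 58.25, 60.56 and 56.68 in extract livers. Every extract value lay above the water values, by a small margin, with a log2 fold change of 0.18 (standard error 0.11, limma adjusted p = 0.641). After scaling to a common sum the Rab5c groups overlapped. Rab5a had 20.64, 15.49 and 20.59 FPKM against 20.36, 21.57 and 23.81 (log2 fold change 0.21). Here water 2 was low and the groups overlapped, and without water 2 the log2 fold change was 0.08. Rab5b had 27.97, 37.22 and 37.04 FPKM against 34.88, 33.45 and 41.97, with water 1 low and extract 3 high. Its log2 fold change of 0.11 became -0.02 without water 1.

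Rab21, which guides integrin uptake, had 10.90, 12.06 and 12.09 FPKM in water and 12.49, 12.85 and 12.64 in extract livers. The groups did not overlap, but the log2 fold change was only 0.11, with a 95% interval from -0.13 to 0.34, and it was 0.06 without water 1. They overlapped after scaling to a common sum. Rab22a, of early and recycling endosomes, had 7.70, 8.62 and 9.22 against 8.28, 8.81 and 10.44 FPKM. Rab20, found on phagosomes in macrophages, had 7.53, 8.10 and 5.87 against 7.57, 6.25 and 9.23 FPKM, and both genes overlapped between groups. Rab31, which acts between the trans-Golgi and endosomes, was low, at 1.28 to 1.92 FPKM in water and 1.24 to 1.89 in extract livers.

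Recycling members return receptors to the surface and, in polarized cells, carry cargo towards the apical side. 7 of 9 were tested, with a median log2 fold change of 0.05 and 6 positive, which was 4 after median centring. None had a limma unadjusted p below 0.05, and 0 passed after adjustment. Rab14, of endosomes and the trans-Golgi, had 36.87, 36.92 and 41.34 FPKM in water and 39.48, 36.07 and 41.65 in extract livers. Rab11b, of the recycling endosome, had 36.42, 37.65 and 37.85 against 37.79, 36.43 and 43.72. Its close relative Rab11a, which is needed to build bile canaliculi in cultured cells, had 21.14, 16.48 and 17.61 against 20.07, 20.49 and 16.79. Groups overlapped for all of these, and extract 3 held the highest Rab11b value and the lowest Rab11a value of its group.

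Rab4a, of fast recycling, had 31.42, 21.89 and 21.68 FPKM in water and 23.17, 23.70 and 29.52 in extract livers, so water 1 and extract 3 were the high libraries. Rab4b had 11.20, 11.49 and 9.92 against 12.38, 11.93 and 14.00. All extract values of Rab4b lay above the water values (log2 fold change 0.21, 95% interval -0.05 to 0.48, limma adjusted p = 0.588). Its groups overlapped after scaling to a common sum. 58.1% of the 50-base stretches of the annotated Rab4b transcripts also occur in transcripts of other annotated genes, chiefly Gm21983, so its value depends on how reads were divided. Rab17, an epithelial member of transcytosis, had 8.96, 10.42 and 10.67 against 8.53, 9.34 and 14.69 FPKM, with extract 3 alone high. Rab35, of fast recycling from the plasma membrane, had 8.61, 10.51 and 11.30 against 8.55, 9.69 and 10.26 FPKM. Rab25 and Rab15, known from epithelia and nerve cells, stayed below 0.5 FPKM in every library.

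Secretory members bring vesicles from the Golgi to the plasma membrane. 6 of 12 were tested, 3 with positive and 3 with negative log2 fold changes, and a median of 0.02 that was -0.03 after median centring. Rab8a, of basic transport to the cell surface and cilium, had 30.30, 29.40 and 30.62 FPKM in water and 29.94, 33.04 and 31.54 in extract livers. Rab10, known for carrying the glucose transporter GLUT4 in fat cells, had 20.14, 26.04 and 29.38 against 22.94, 22.83 and 25.81. Groups overlapped for both, and the 95% interval of the log2 fold change was -0.17 to 0.30 for Rab8a and -0.41 to 0.29 for Rab10.

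Rab3a, a regulator of exocytosis best known from synaptic vesicles, had 3.04, 2.41 and 2.10 FPKM in water and 3.24, 3.14 and 4.52 in extract livers. The groups did not overlap, although water 1 and extract 2 were close. The log2 fold change was 0.39 (standard error 0.16), with an unadjusted limma p of 0.0392 and an adjusted p of 0.46. It was 0.26 without extract 3, with an unadjusted limma p of 0.129, and 0.50 without water 1, with an unadjusted limma p of 0.0197. Leaving out any other library gave a value between these. Rab3a (gene ID 19339) lies on chromosome 8 from 70754703 to 70758608 on GRCm38. Its relative Rab3d, of exocrine secretory granules, had 2.68 to 3.09 FPKM in water and 2.89 to 3.63 in extract livers, Rab13, of tight junctions, 2.90 to 3.78 and 2.67 to 3.15, and Rab27a, of lysosome-related organelles, 0.74 to 1.28 and 0.97 to 1.07. Rab3b, Rab3c, Rab26, Rab27b and Rab37, all linked to regulated exocytosis, stayed below 0.5 FPKM in every library. Rab8b, not tested, had 0.66 to 0.78 FPKM in water and 0.82 to 0.90 in extract livers.

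**Figure D3:**
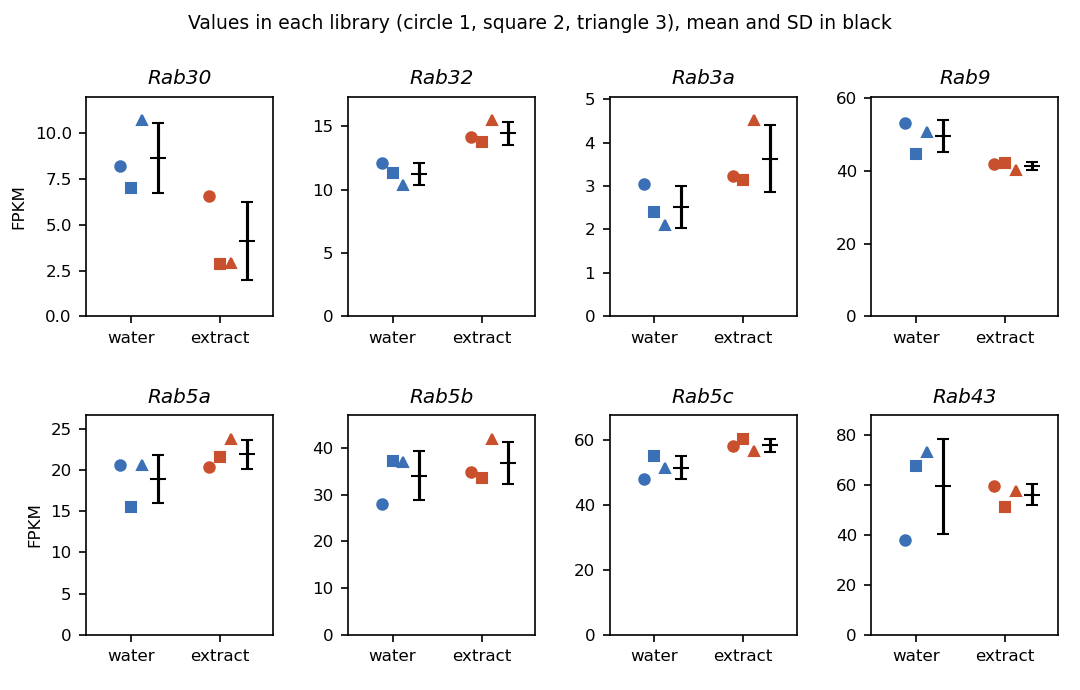
FPKM in each library for 8 Rab genes, with symbol shape for replicate number and black bars for the group mean and SD. Rab30 and Rab9 are lower and Rab32, Rab3a and Rab5c higher in all extract libraries, though Rab5c overlapped after scaling to a common sum. The Rab43 mean in water is set low by water 1 at 37.88 FPKM.

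The ER and Golgi members serve the first steps of secretion. 10 of 15 were tested, with a median log2 fold change of -0.02, 4 positive and 6 negative. Under the 4 other scalings tried the median was between -0.07 and -0.05, with 2 positive and 8 negative. Rab30, a Golgi-associated member, differed most between groups of all 39 genes. It had 8.22, 7.03 and 10.73 FPKM in water and 6.56, 2.87 and 2.93 in extract livers. All extract values lay below the water values, extract 2 and extract 3 far below and extract 1 close to water 2. Means were 8.66 ± 1.89 and 4.12 ± 2.11 FPKM, a log2 fold change of -0.97 (standard error 0.27) and a 95% interval from -1.61 to -0.34. The unadjusted limma p was 0.00797 and the adjusted p 0.264, so the difference did not pass. Without extract 1 the log2 fold change was -1.29 (limma adjusted p = 0.148), and it lay between -1.29 and -0.81 when each library was left out in turn. With libraries weighted by their quality in limma it was -0.68, with an unadjusted p of 0.0532. Rab30 also had the largest spread within groups of the 39 genes, an SD of 0.44 on the log2(FPKM + 1) scale. Rab30 (gene ID 75985) lies on chromosome 7 from 92741637 to 92844535 on GRCm38, and 0.3% of its 50-base stretches occur in other genes.

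Rab34, which acts in cilium formation and lysosome positioning, had 5.01, 4.53 and 4.25 FPKM in water and 4.20, 3.75 and 3.78 in extract livers, without overlap (log2 fold change -0.19, limma adjusted p = 0.626). Rab43, a Golgi member, had 37.88, 67.81 and 73.30 against 59.54, 51.40 and 57.60 FPKM. Water 1 held the lowest value and the other water libraries the highest. The log2 fold change was -0.03, and without water 1 it was -0.33, where the limma adjusted p = 0.241. In addition, 74.5% of the 50-base stretches of Rab43 transcripts occur in another annotated gene, Gm45140, so its level is uncertain. Rab1a had 54.88, 43.58 and 49.97 FPKM against 48.43, 48.44 and 49.89, and Rab2a, of Golgi and pre-Golgi membranes, 35.03, 29.86 and 34.22 against 33.52, 35.41 and 34.20. Both overlapped between groups, as did Rab6a, of Golgi traffic (15.80 to 21.46 and 17.84 to 19.45), and Rab18, of the ER and lipid droplets (17.04 to 19.99 and 19.24 to 21.12). Rab33b and Rab2b had 1.80 to 2.55 FPKM over all libraries, and Rab39, Rab19, Rab6b, Rab33a and Rab39b stayed below 0.5.

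Late endosome and lysosome members showed values on either side. 5 of 9 were tested, with log2 fold changes from -0.25 to 0.34. Rab32, of lysosome-related organelles and mitochondria, had 12.09, 11.29 and 10.39 FPKM in water and 14.19, 13.75 and 15.50 in extract livers, with no overlap. Means were 11.3 ± 0.85 and 14.5 ± 0.91 FPKM, a log2 fold change of 0.34 (standard error 0.11). The unadjusted limma p was 0.0163 and the limma adjusted p = 0.338. The fold change lay between 0.29 and 0.39 when each library was left out in turn. Rab32 is also expressed in macrophages, and markers of Kupffer cells had higher values in these libraries too, Clec4f for example at 21.79, 19.31 and 16.37 against 28.34, 35.34 and 26.23 FPKM. Their part in the Rab32 values was not tested. Rab32 (gene ID 67844) lies on chromosome 10 from 10545039 to 10558207 on GRCm38.

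Rab9, which returns mannose 6-phosphate receptors from late endosomes to the Golgi, had 53.29, 44.62 and 50.73 FPKM in water and 41.92, 42.12 and 40.16 in extract livers. Every extract value lay below every water value, and the extract values were close together. The log2 fold change was -0.25 (standard error 0.11), its 95% interval ran from -0.51 to 0.01, and the limma adjusted p = 0.509. The unadjusted p was 0.0583 by limma. After scaling to a common sum, median centring, quantile normalization or leaving the 20 highest genes out of the scaling, Rab9 in place of Rab3a was among the 3 genes with an unadjusted p below 0.05. 6.2% of its 50-base stretches occur in another annotated gene, Rab9b-ps1. Rab9 (gene ID 56382) lies on chromosome X from 166457251 to 166479867 on GRCm38. Rab24, linked to autophagy, had 15.21 to 24.06 FPKM in water and 16.50 to 19.40 in extract livers, and Rab29, of the trans-Golgi and lysosomes, 5.78 to 6.26 and 5.98 to 6.80. Rab38, Rab7b, Rab36 and Rab9b stayed below 1 FPKM, with Rab7b at 0.04 to 0.16 in water and 0.17 to 0.26 in extract livers. Of the remaining members, Rab12, Rab28, Rab40c and Rab23 were tested, with log2 fold changes from -0.18 to 0.09, and Rab42, Rab40b and Rab44 stayed below 0.5 FPKM.

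**Figure D4:**
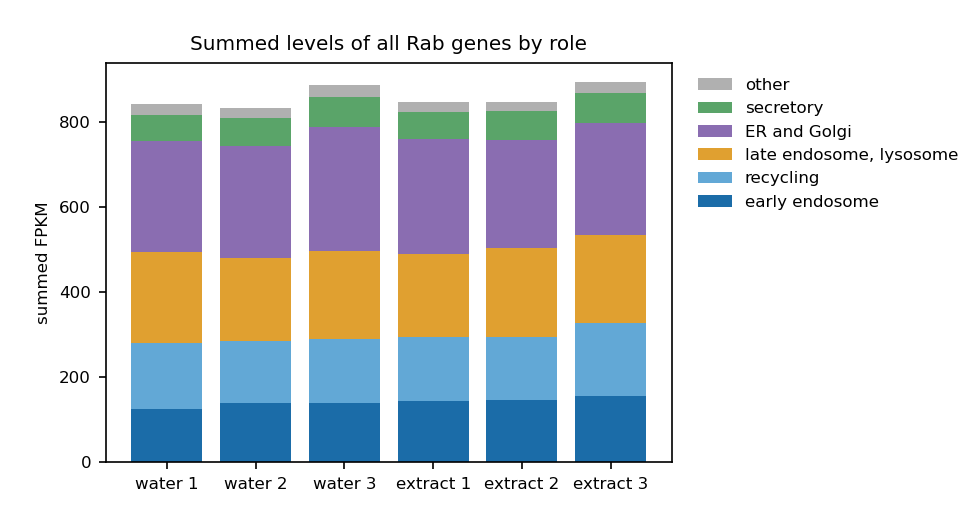
Summed FPKM of all 59 Rab genes in each library, stacked by role. Bars stand between 832.6 and 893.9 FPKM, and the early endosome segment is 124.1 to 138.3 in water and 143.2 to 156.0 in extract libraries.

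The proteins that act on Rabs, and the effectors that Rabs recruit, were read from lists of 204 names, of which 172 were tested. By limma 0 passed after adjustment, and 6, or 3.49%, had an unadjusted p below 0.05, against 10.3% of all genes tested. 3 were higher and 3 lower in extract livers. The median log2 fold change was 0.02.

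Of 11 genes for lipid attachment and cytosolic carriage of Rabs, 10 were tested and 0 had an unadjusted limma p below 0.05. Gdi2, a GDP dissociation inhibitor, had 114.00, 105.29 and 110.81 FPKM in water and 106.72, 110.43 and 107.92 in extract livers. The geranylgeranyl transferase subunit Rabggta had 10.53 to 12.97 and 12.46 to 14.36 FPKM, and Rabggtb 22.09 to 29.19 and 21.58 to 23.11. Of the escort proteins, Chm averaged 1.99 ± 0.505 FPKM after water and 2.44 ± 0.218 after extract, and Chml, not tested, 0.13 to 0.28 over all libraries.

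Of 52 exchange factors, 47 were tested and only Rab3ip, an activator of Rab8, had an unadjusted limma p below 0.05. It had 14.64, 13.51 and 13.85 FPKM in water and 11.63, 11.62 and 12.07 in extract livers, a log2 fold change of -0.23 (limma adjusted p = 0.484). Rin2, an activator of Rab5, had 1.63, 1.64 and 2.31 against 2.34, 2.79 and 2.35 FPKM (limma adjusted p = 0.514). Both genes were without overlap between groups. Of 38 GTPase activators, 32 were tested, and 2 had an unadjusted limma p below 0.05. Tbc1d22a had 7.09, 7.28 and 6.87 against 5.72, 5.65 and 5.77 FPKM (log2 fold change -0.27, limma adjusted p = 0.396), and Tbc1d2b 6.33, 6.85 and 6.11 against 7.27, 9.66 and 7.85 (log2 fold change 0.31, limma adjusted p = 0.47).

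Among effectors, none of 21 tested early endosome genes had an unadjusted limma p below 0.05. Ehd1, a membrane-shaping ATPase of recycling, had 9.72 to 11.89 FPKM in water and 12.06 to 15.58 in extract livers, and the Rab5 adaptor Appl1 1.23 to 1.71 and 1.66 to 1.97. Of 10 tested recycling effectors, Rufy1, which binds Rab4 and Rab14, had 4.68, 4.19 and 4.99 against 5.97, 5.99 and 6.14 FPKM (log2 fold change 0.33, limma adjusted p = 0.338). Exoc6 of the exocyst had 4.84 to 5.79 and 5.51 to 6.74. Of 21 tested effectors of late endosomes, Rilp, which links Rab7 to the dynein motor, had 21.54, 19.53 and 19.36 FPKM in water and 17.34, 14.15 and 16.21 in extract livers (log2 fold change -0.33, limma adjusted p = 0.39). Plekhm2, which links lysosomes to kinesin, had 2.04 to 2.67 and 2.60 to 3.20. Of 32 tested Golgi and secretory effectors, Exoc5 of the exocyst had 3.60, 2.83 and 3.43 against 4.72, 3.92 and 4.10 FPKM (log2 fold change 0.29, limma adjusted p = 0.475). Gorasp2, a Golgi stacking protein, had 41.71, 38.51 and 37.13 against 44.73, 44.21 and 50.14 (limma adjusted p = 0.525). Rufy1, Rilp, Exoc5, Gorasp2 and Ehd1 did not overlap between groups, as did not 9.3% of the 172 genes, against 15.9% of all genes tested.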

How the data were processed

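6 libraries of poly(A)-selected liver RNA were analysed, grouped by their titles. Per the submitters' processing notes, the tools were RSEM 1.2.12, DESeq2 1.4.5, HISAT2 2.0.4 and Bowtie2 2.2.5, with no roles given, and the build GRCm38. The deposited values, 1 for each gene in each library, carry no unit. They were read as FPKM computed by the authors, because weighting by the longest GENCODE transcript brought every library to between 118.1% and 120.8% of its fragments. Depth and counting error are unknown, strand use is not given in the sources used here, and FPKM of similar genes depend on how reads were divided. The authors' group mean columns were not used.

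A linear model with a prior variance that follows expression was fitted with limma 3.58.1 (R 4.3.3) on log2(FPKM + 1), which understates fold changes of low genes. The fit was also run on simulated data, with the same spread for every gene and changes larger than those of most Rab genes here. That run, whose outcome is not reported here, does not show how the fit handles smaller changes or unequal spreads. Genes needed 1 FPKM in 3 libraries. Members, role lists and machinery lists were chosen with earlier results of these data known. By the naming rule, values in every library are given for the 10 highest members, those with unadjusted p below 0.05, and early endosome, recycling and secretory members with a mean of at least 5 FPKM; of each machinery list, the 2 smallest p and 6 fixed genes, of which 1 is not reported here. Rab34 was added after its values were seen. Alternatives covered scaling, pseudocount, filter, variance options, a replicate block and leaving out libraries. Coordinates are RefSeq's on GRCm38.p6, and all 59 gene IDs matched.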

Additional observations from a re-analysis of the deposited data

How the results depend on the processing

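Neither a Rab gene nor a gene of the machinery lists passed limma's adjusted threshold under any of the 18 alternatives, including library weights and leaving out extract 3, where 133 and 48 genes passed over the whole table. The median Rab log2 fold change stayed between -0.02, its value without extract 3, and 0.07. The number of Rab genes at unadjusted p below 0.05 ranged from 1 to 4 when each library was left out in turn, and it was 1, Rab30, without water 3 or without extract 3. Without water 1 and extract 3 together, chosen after the data were seen, it was 3, with Rab43 in place of Rab30, and 17 of 38 tested members did not overlap between groups, against 50.4% of all genes. In counts also added after the data were seen, 12 of 38 did not overlap without water 1 (33.9% of all genes), 12 of 39 without water 2 (22.6%), 10 of 38 without water 3 (27.1%), 12 of 39 without extract 1 (22.7%), 11 of 38 without extract 2 (23.9%) and 9 of 39 without extract 3 (26.4%). With library weights 2 Rab genes, Rab32 and Rab3a, had an unadjusted p below 0.05. Of 214 recomputed fold changes of 12 Rab genes, chosen after their values were seen, 207 kept their direction. None of them passed the adjusted threshold, so this count is of direction only. It does not cover which genes had an unadjusted p below 0.05. Rab5b was -0.02 with library weights, ranged from -0.02 (without water 1) to 0.18 over the libraries left out and was -0.12 without water 1 and extract 3, Rab7 was -0.00 without the 20 highest genes in the scaling, and Rab43 ranged from -0.33 to 0.14 over the libraries left out. Rab3a and Rab34 had no value with the filter at a mean of 5 FPKM. The labels share replicate numbers, but deviations of same-numbered libraries correlated at -0.02, -0.18 and 0.12, so the numbers were not taken as pairs; with a replicate block 0 Rab genes passed and 2, Rab30 and Rab32, had an unadjusted p below 0.05. What read depth limits is unknown, since the values carry no read numbers.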
